A study of Mus musculus with 2 samples.

Results

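The cytosolic ribosomal protein genes are described here in isolated colonic crypt cells of mice, as all gene symbols of the form Rpl or Rps followed by a digit or the letter a. Pseudogene symbols with -ps and the S6 kinase genes were left out, and a gene needed 100 or more unique molecular identifiers (UMIs, one per captured RNA molecule) over both libraries. Of 31053 genes in the matrices, 83 symbols matched and 80 were members. Of these, 74 encode canonical ribosomal proteins, 43 of the large and 31 of the small subunit. The others are 5 paralogs (Rpl22l1, Rps27l, Rpl36al, Rpl7l1 and Rps27rt) and Rps19bp1, which encodes a protein that binds a ribosomal protein and is not itself one. The members just inside the threshold had far more UMIs than it asked, with 5691 for Rps27rt, 13917 for Rps19bp1 and 15395 for Rpl13a. Just outside were Rpl39l with 65, Rpl3l with 39 and Rpl10l with 0. The symbol pattern does not reach some other ribosomal protein genes, such as Rplp0 and Rack1, which were kept as a separate list.

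Cells came from C57BL/6 mice aged 4 weeks, and each genotype was 1 pool of cells from 3 mice. The control carried floxed Mettl14 alleles, M14(f/f) in the labels, and the Mettl14_cKO library came from mice with the same alleles and Villin-Cre, a recombinase made in gut epithelium, so that lymphoid and myeloid cells should not express it. Mettl14 is a subunit of the enzyme that writes N6-methyladenosine on mRNA. Each genotype has 1 library, so no test was possible, and every interval given is a 95% interval that covers counting error only.

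A ribosome is built from its proteins in equal numbers, and the genes for them are among the most transcribed of any growing cell. Their mRNAs begin with a terminal oligopyrimidine tract, a C followed by a run of pyrimidines, through which mTOR and Larp1 control their translation and storage. In the colon, dividing cells at the crypt base make new ribosomes, and cells that mature toward the surface turn to transport, mucus or hormone genes. A few members have paralogs that can take the place of the canonical protein, so the share of a pair held by the paralog is one readout of ribosome composition.

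RefSeq start regions (GRCm38.p6) were found for 61 of the 80 members. In the 100 bases from 50 before to 50 after the annotated start, CTTTCC stood on the sense strand of 18 of these 61 (29.5%), against 4.67% of all 27025 start regions. CTCTTTC, which overlaps it in part, stood in 11 of the 61 members and in 1.33% of all start regions. The motif CCGGAAG, a core bound by ETS factors, was found on either strand in 21.3% of members and 5.48% of all. Windows of 30 bases are shown for members of 3 paralog families whose balance is described below, and for Rpl38 and Rpl15, which stood high and low among the members. Capitals mark the pyrimidine-rich match, which is one of the motifs above or, for Rpl22l1, the shorter CTTCC, and each sequence is on the strand of its gene. The match begins within 5 bases of the annotated start for Rps27, Rps27rt, Rpl22l1, Rpl38 and Rpl15. It begins at 32 and 31 bases past the start for Rpl36a and Rpl36al, and at -32, before the start, for Rpl22. A match is therefore not always at the place of the tract.
Rps27, chr3:90213630-90213659, minus strand: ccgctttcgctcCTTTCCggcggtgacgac
Rps27rt, chr9:114982722-114982751, minus strand: acttatcccttgCTTTCCggcggtgacgac
Rpl36a, chrX:134585674-134585703, plus strand: gctctagcctctCTCTTTCcgagctgctag
Rpl36al, chr12:69184019-69184048, minus strand: ctctgttcgtccCTTTCCtgttcggcgcgt
Rpl22, chr4:152325682-152325711, plus strand: tctgactcctccCTTTCCcgacagccgact
Rpl22l1, chr3:28805501-28805530, plus strand: caagcccgttctCTTCCcacggctgcagct
Rpl38, chr11:114668568-114668597, plus strand: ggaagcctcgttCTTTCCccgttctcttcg
Rpl15, chr14:18270965-18270994, minus strand: aaagccttcttcCTTTCCtctggcggcagc
The windows of Rps27 and its near copy Rps27rt end in the same run from the motif on. Rps27l, another gene of that family on the plus strand of chromosome 9, had no such match in its region, nor had Rpl41. A match is a description of letters, and members with a match stood on both sides of the common difference described below.

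The control library held 111239295 UMIs in 10181 barcodes (median 9085) and the Mettl14_cKO library 89729527 in 9225 (median 3872). After filtering, 9077 and 7072 cells were kept, with medians of 10037 and 6253.5 UMIs, and 33 barcodes occur in both libraries. Mettl14 was read at 4.77 CPM (UMIs of a gene scaled to a fixed library total; 531 UMIs) in the control and 5.004 CPM in Mettl14_cKO, and where its reads lie relative to the floxed exons is not given, so this does not check the deletion. The sex of the mice differed between the libraries, with Xist at 0.0629 CPM in the control and 338 in Mettl14_cKO, and 4 Y-linked genes at 103.5 and 0.0780 CPM. Genotype and sex cannot be told apart. Of the clusters, 2, 5, 10 and 11 had Gm26917, Gm42418 or the nuclear RNA Neat1 among their 10 leading genes and were shallow, and 1030 of the 1123 cycling-like Mettl14_cKO cells lay in cluster 5, so values are also given without these 4 clusters, called nuclear-RNA clusters below. The 16 cycling markers summed to 7584 CPM in control and 5141 in Mettl14_cKO cycling-like cells. They summed to 5790 in unnamed epithelial and 5485 in T or NK-like Mettl14_cKO cells. Unnamed cluster 3, led by Ccl20 and Il4i1, held 1162 Mettl14_cKO cells. A cluster led by these genes was named cycling-like with the lenient filter, with doublets kept and at resolution 0.5. The cycling-like class thus compares cells of unlike state.

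Ribosomal protein genes took 19.2% of the UMIs of all kept cells in the control and 23.0% in Mettl14_cKO. The share followed cell class more than library. In the control it was highest in T or NK-like cells (29.5%) and cycling-like cells (25.4%), and lower in goblet-like (20.2%), enteroendocrine-like (17.5%) and colonocyte-like cells (11.5%). Cycling-like cells thus held more than 2 times the share of colonocyte-like cells, and every step in this order exceeded its counting interval. In Mettl14_cKO the epithelial order was the same, with 28.9% in cycling-like, 22.6% in goblet-like, 14.6% in enteroendocrine-like and 12.2% in colonocyte-like cells, and T or NK-like cells stood at 27.0%, below the cycling-like cells. Single cells varied widely: the middle 90% of control colonocyte-like cells ran from 3.34% to 20.7%, and of control cycling-like cells from 16.3% to 35.3%, so that the ranges of neighbouring classes overlapped.

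**Figure D1:**
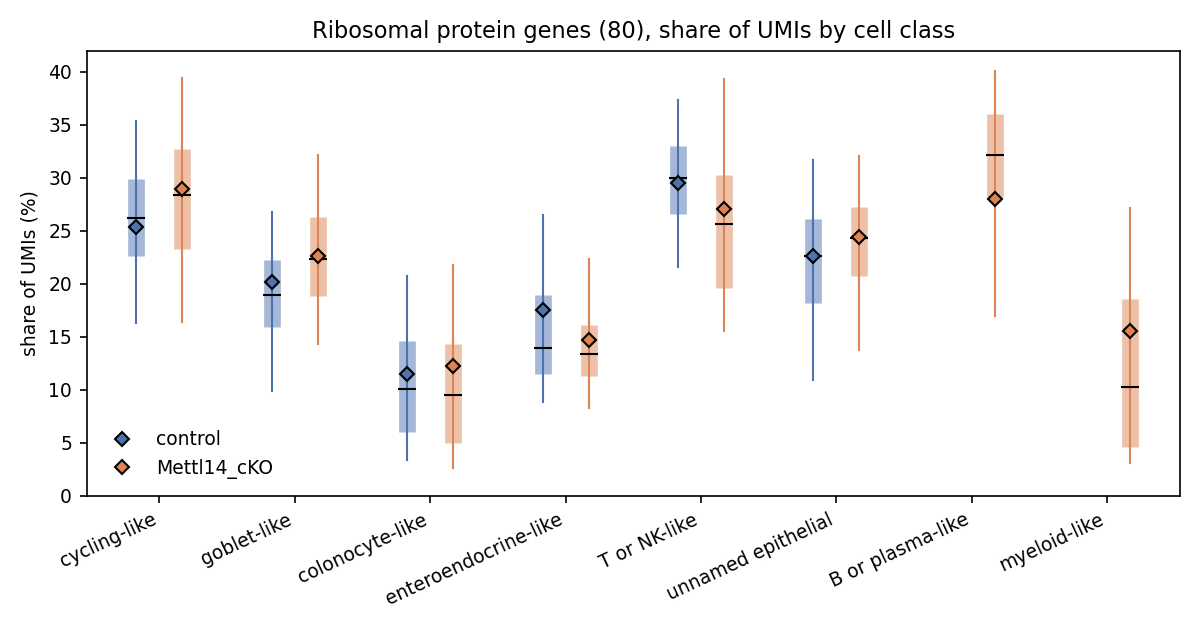
Share of UMIs (%, vertical axis) from the 80 ribosomal protein genes in each cell class (horizontal axis), control in blue and Mettl14_cKO in orange. Diamonds are shares of summed UMIs, dashes the median cell, thick bars run from the lower to the upper quartile and thin lines cover the middle 90% of cells. Classes differ more than libraries, from 11.5% in control colonocyte-like to 29.5% in control T or NK-like cells.

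Immune cells spanned nearly the whole range by themselves. B or plasma-like cells, which were compared in Mettl14_cKO alone (200 cells), gave 28.0% to ribosomal protein genes. Myeloid-like cells of the same library split into a cluster of 210 cells led by the macrophage genes Apoe, Lyz2 and C1qb at 18.8%, and one of 216 cells led by the neutrophil genes S100a9, S100a8 and Retnlg at 8.04%, where the median cell held 4.69%. In Mettl14_cKO the T or NK-like class was made of 2 clusters of unlike share. Cluster 12, led by Ccl5, Gzma and Gzmb, stood at 29.5% in the control and 30.8% in Mettl14_cKO, whereas cluster 17, led by Trdc and Il17a, held 271 Mettl14_cKO cells against 8 of the control and stood at 24.6%. The class as a whole was lower in Mettl14_cKO, and within cluster 12 the direction was the opposite.

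Between the libraries, goblet-like cells of Mettl14_cKO gave 1.12 times the control share (interval 1.12 to 1.12). The libraries filled different goblet-like clusters: Mettl14_cKO cells lay mostly in clusters 2 (1197 cells), 4 (1121) and 13 (452), which held 5, 0 and 0 control cells, and control cells mostly in clusters 1 (1355), 6 (1028), 8 (941), 11 (509) and 15 (402). Genotype and cluster makeup cannot be told apart in this ratio, and within the shared clusters 1 and 8 it was 1.08 and 1.10. The ratio was above 1 in each of the 11 alternatives tried, from 1.10 to 1.197. Enteroendocrine-like cells went the other way, at 0.834 times the control share (0.829 to 0.839), and stayed below 1 in each alternative, up to 0.957 for the ratio of cell medians. The control enteroendocrine-like cells also carried the 15 goblet markers at a summed 13330 CPM, against 2739 CPM in Mettl14_cKO, and 16 cycling markers at 2996 against 1865 CPM. In those of 10000 or more UMIs the ribosomal protein share was 20.8% and 14.2% (25 and 36 cells), but from 3000 to 10000 UMIs it was 15.2% and 15.1%, and under 3000 UMIs it was 13.5% and 13.7% (61 and 146 cells). Cells with under 5% mitochondrial UMIs gave 17.6% and 14.1%, and those with more gave 17.1% and 17.4%. The part of such RNA and of deep cells in the difference was not tested. Cycling-like cells stood at 1.14, but with the nuclear-RNA clusters left out the ratio was 1.04 and rested on cluster 7, with 71 Mettl14_cKO cells, and a lenient cell filter (0.970) or coarser clusters (0.951) turned its direction. Colonocyte-like cells stood at 1.06 with cell medians of 10.0% and 9.45%, and this direction also depended on the setting, from 0.942 to 1.62. Here too the libraries filled different clusters, with 1647 control and 53 Mettl14_cKO cells in cluster 0 and 43 and 261 in cluster 16. No direction is therefore given for either of these classes.

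Clusters that held cells of both libraries allow a closer match of cell state, but not of depth. Median UMIs per cell were 15284 in control and 27377 in Mettl14_cKO cells of cluster 1, and 12072 and 20487 in cluster 7. The control cells were the deeper in cluster 22 alone (7708 and 6979). The part of depth in the shares below was not tested. Of 11 such clusters, 8 had a higher ribosomal protein share in Mettl14_cKO and 3 a lower one. In goblet-like cluster 1 the share was 21.9% in the control and 23.7% in 69 Mettl14_cKO cells, and in cycling-like cluster 7 it was 25.1% and 26.0% (71 cells). The colonocyte-like clusters differed most, with 11.6% and 16.4% in cluster 0 (53 Mettl14_cKO cells), and 3.75% in 43 control cells against 10.995% in cluster 16, a surface-type cluster led by Saa1, Car4 and Aqp8. In cluster 16 the control cells had a median of 3701 UMIs and 10.5% mitochondrial UMIs. The Mettl14_cKO cells there had 8696 and 7.25%. Both enteroendocrine-like clusters were lower in Mettl14_cKO. Cluster 14, led by the chromogranin genes and Tph1, went from 19.2% to 14.9%, and cluster 22, led by the hormone genes Pyy, Gcg and Cck, from 15.8% to 14.1%. The median cells of cluster 14 were closer than these summed shares, at 14.8% and 13.4%. The median cells of cluster 22 were nearly equal, at 13.0% and 13.1%.

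Differences of single members between the libraries were mostly small. On the scale of log2 of Mettl14_cKO over control, each in CPM plus 1, the median of the 80 members came to 0.12 for the cycling-like class, 0.12 for goblet-like, 0.02 for colonocyte-like, -0.34 for enteroendocrine-like and -0.13 for T or NK-like cells. The colonocyte-like value pools clusters that the libraries filled unequally. Within cluster 0 the 9 shortest canonical members (described below) had a median of 0.66 and the 21 longest one of 0.47, and within cluster 16 these were 1.79 and 1.62. The median over all genes of at least 10 CPM in these classes was -0.07, -0.11, -0.16, 0.12 and 0.02. A difference of at least 1.5-fold was found for 37 of 400 pairs of member and class, 22 higher and 15 lower in Mettl14_cKO. In cycling-like cells 12 members were past it upward and 2 downward, against a background of 16.0% and 17.7% of all genes. Goblet-like cells had 5 and 0 (background 12.2% and 15.8%), and colonocyte-like cells 3 and 1 (17.6% and 25.1%). For T or NK-like cells the counts were 0 and 0 (19.8% and 15%). Enteroendocrine-like cells had 2 upward and 12 downward (24.9% and 15.3%). Against all genes, these shares of members lay below or near the background. Among other genes of at least 100 CPM, which are closer to the members in level, 8.19% were higher and 32.6% lower in cycling-like cells, so the 12 of 80 members higher there are a larger share than among those genes. The same share was 12.4% higher in goblet-like cells, and 16.1% lower in enteroendocrine-like cells. The counts moved with the cell filter, to 76 pairs with a strict filter and to 23 with the nuclear-RNA clusters left out. The count of members higher in cycling-like cells ran from 0 to 13 over 12 alternatives, so its excess depends on the setting.

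Among the members read most, Rps24 of the small subunit held 1217312 UMIs over both libraries, Rpl41 1143093, Rpl13 1067847 and Rps27a, a ubiquitin fusion, 1011483. Reads of several members cannot be assigned firmly, because 39 members share at least 50% of the 60-base words of their last 500 transcript bases with other genes, mostly pseudogenes, and 16 share none. The handling of reads with several matches is not stated in the labels or file headers.

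Each member's difference was next set against the median of the 80 members in the same class. Of the 74 canonical members, 39 lay within 0.2 of that median on the log2 scale when averaged over the 4 epithelial classes, and the SD of the averages was 0.26. A member left the common pattern where its average was at least 1.5-fold from the median with the same sign in each epithelial class. Upward, 5 members did so (Rps27rt, Rpl36al, Rpl36, Rps29 and Rpl41), and downward 0, against a background of 10.5% and 9.27% of all genes by the same rule around their own median. Rpl36al was 1 of these members in each of the alternatives run, whereas the count ran from 1 to 6. On GRCm38, Rpl36 lies at chr17:56613416-56614243 (plus strand), Rps29 at chr12:69157722-69159186 (minus), Rpl41 at chr10:128548114-128549305 (minus), Rpl36al at chr12:69182731-69184083 (minus) and Rps27rt at chr9:114982366-114982739 (minus).

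Rpl36, a large subunit protein, went furthest among the canonical members. It was read at 4589 CPM in the control and 11164 in Mettl14_cKO in cycling-like cells, 3128 and 5680 in goblet-like, 2011 and 2895 in colonocyte-like, and 3242 and 3670 in enteroendocrine-like cells. Its deviation from the member median was 1.16, 0.74, 0.50 and 0.52 in that order, and 0.27 in T or NK-like cells (4550 and 4986 CPM). Rpl36 shares 76.2% of its end words with other genes. Averaged over the epithelial classes its deviation of 0.73 ran from 0.46 to 0.82 over the alternatives.

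Rps29, a zinc-binding small subunit protein, was more even. Its level was 4006 CPM in control and 6830 CPM in Mettl14_cKO cycling-like cells, 3561 and 5747 in goblet-like, 2464 and 3789 in colonocyte-like, and 2762 and 3337 in enteroendocrine-like cells. The deviations of Rps29 lay between 0.57 and 0.65 in the 4 epithelial classes, and T or NK-like cells gave 4884 and 4859 CPM. Rpl41, a short peptide of the large subunit, stood at 5308 and 8660 CPM in cycling-like, 5187 and 7346 in goblet-like, 3057 and 5002 in colonocyte-like, and 4553 and 6134 in enteroendocrine-like cells. In T or NK-like cells Rpl41 stood at 5350 and 5036 CPM. Both genes were thus higher in Mettl14_cKO in each of the 4 epithelial classes and nearly equal or lower in T or NK-like cells.

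Downward no member passed the rule. The lowest averages were those of Rpl22l1 (-0.51), Rpl7a (-0.44) and Rpl15 (-0.39), and the last of these, like Rpl7a, is a large subunit protein. Rpl7a was read at 2212 and 1945 CPM in cycling-like, 1885 and 1507 in goblet-like, 1291 and 928 in colonocyte-like, and 1455 and 812 in enteroendocrine-like cells. Rpl15 stood at 3968 and 3240, 3170 and 2700, 1703 and 1329, and 2969 and 1781 CPM in the same order. Both were lower in Mettl14_cKO in every epithelial class, and both share 88.4% of their end words with other genes.

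**Figure D2:**
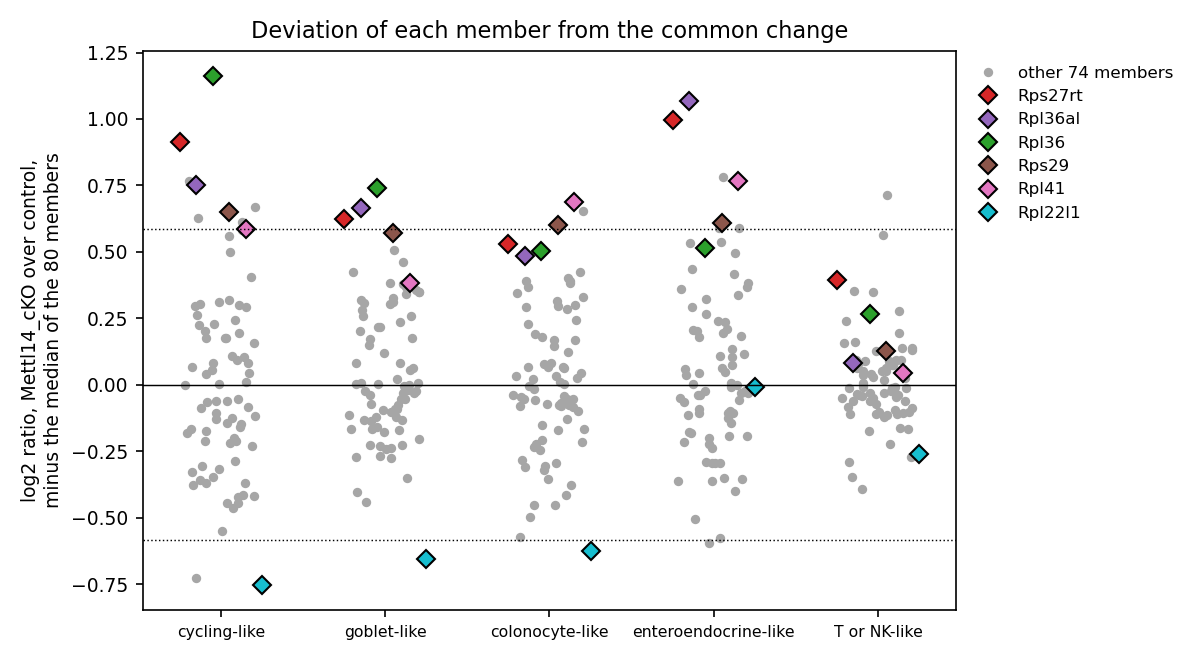
Deviation of each of the 80 members in each cell class (horizontal axis), as log2 of Mettl14_cKO over control minus the median of the members (vertical axis). Grey points are single members, coloured diamonds the 5 members off the common pattern and Rpl22l1, and dotted lines 1.5-fold. The 5 members lie above 0 in each epithelial class, and the spread is narrower in T or NK-like cells.

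The members at the upper end were short genes. This was seen in the values first, and the lengths were compared afterwards, so it is a description. Over the 74 canonical members, the average epithelial deviation was lower at greater log2 coding length, with Pearson's r of -0.69 and Spearman's rho of -0.64 across genes, which share libraries and are not independent replicates. By class, r was -0.63 for cycling-like, -0.57 for goblet-like, -0.61 for colonocyte-like and -0.63 for enteroendocrine-like cells. T or NK-like cells gave -0.25. Within clusters that both libraries filled, r was weaker outside the enteroendocrine-like cells. It was -0.46 and -0.16 in goblet-like clusters 1 and 8, -0.41, -0.34 and -0.22 in cycling-like clusters 5, 7 and 10, -0.33 and -0.17 in colonocyte-like clusters 0 and 16, and -0.14 in the unnamed epithelial cluster 9. Enteroendocrine-like clusters 14 and 22 gave -0.62 and -0.597, and T or NK-like cluster 12 gave -0.03. Other genes of at least 100 CPM gave r between -0.10 and 0.15 over the classes. Among these, though, genes under 300 coding bases stood above those of 600 to under 900. Their log2 medians were -0.22 and -0.54 in cycling-like, 0.07 and -0.18 in goblet-like, 0.02 and -0.19 in colonocyte-like, and -0.01 and -0.21 in enteroendocrine-like cells. Genes of 900 or more, the largest bin, stood at -0.38, -0.19, -0.11 and 0.08 in that order. In enteroendocrine-like cells they were thus above the short genes. Transcript length, which includes the untranslated ends, gave r of -0.46 for the members.

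**Figure D3:**
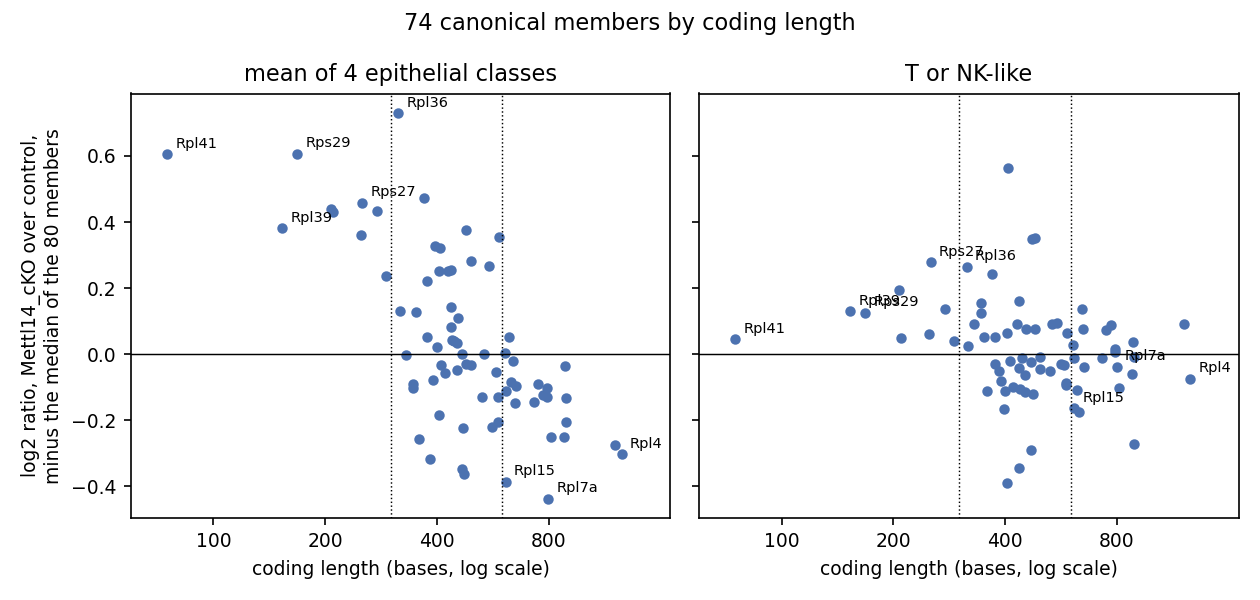
Deviation of the 74 canonical members from the member median (log2, vertical axis) against coding length in bases (horizontal axis, log scale), as the mean of 4 epithelial classes (left) and in T or NK-like cells (right). Dotted lines stand at 300 and 600 bases. All 9 members under 300 bases lie above 0 on the left, between 0.24 and 0.61, and between 0.04 and 0.28 on the right.

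The 9 canonical members with under 300 coding bases were Rpl41, Rpl39, Rps29, Rps28, Rpl38, Rps21, Rps27, Rpl37a and Rpl37, and their coding lengths ran from 75 to 291 bases. In Mettl14_cKO all 9 were higher in the cycling-like (median 0.71), goblet-like (0.47) and colonocyte-like classes (0.40), and 8 of 9 in enteroendocrine-like cells (median 0.16). In T or NK-like cells 3 of 9 were higher, with a median of -0.01. The 21 members of at least 600 coding bases had medians of -0.17, -0.004, -0.05, -0.53 and -0.14 in the same order of classes. In enteroendocrine-like cells 20 of these 21 were lower. The paralog Rps27l has the same coding length as Rps27, 252 bases, but averaged -0.07 where Rps27 averaged 0.46.

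Levels of single short members show the same. Rpl38, which is known for its part in translating Hox mRNAs, was read at 2439 CPM in control and 3910 in Mettl14_cKO cycling-like cells and at 2416 and 3255 in goblet-like cells, but at 3578 and 3379 in T or NK-like cells. Rps27 stood at 2102 and 3428 CPM in cycling-like, 2260 and 3166 in goblet-like and 3347 and 3700 in T or NK-like cells. Rpl39, at the exit of the peptide tunnel, stood at 1647 and 2629 CPM in colonocyte-like cells and at 5572 and 5560 in T or NK-like cells. The long member Rpl4 averaged -0.30 and Rpl3 -0.27 from the member median over the epithelial classes.

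Summed, the 9 short members gave 0.473 UMIs per UMI of the 21 long members in control goblet-like cells and 0.661 in Mettl14_cKO, a ratio of 1.40. The values were 0.390 and 0.608 in cycling-like, 0.511 and 0.761 in colonocyte-like, 0.455 and 0.721 in enteroendocrine-like, and 0.472 and 0.518 in T or NK-like cells. Depth and mitochondrial share moved with this measure in both libraries. Control goblet-like cells under 3000 UMIs stood at 0.586 and those of 10000 or more at 0.466, and the same bins of Mettl14_cKO stood at 0.890 and 0.632. Goblet-like cells under 5% mitochondrial UMIs gave 0.468 and 0.625, and those above gave 0.513 and 0.769. Barcodes with 25% mitochondrial UMIs or more, which were left out elsewhere, gave 0.516 in the control and 0.817 in Mettl14_cKO. The Mettl14_cKO value was the higher in 23 of 23 bins of depth or mitochondrial share that both libraries filled. Bins of depth and bins of mitochondrial share divide the same cells of the same libraries, so they are not independent observations.

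**Figure D4:**
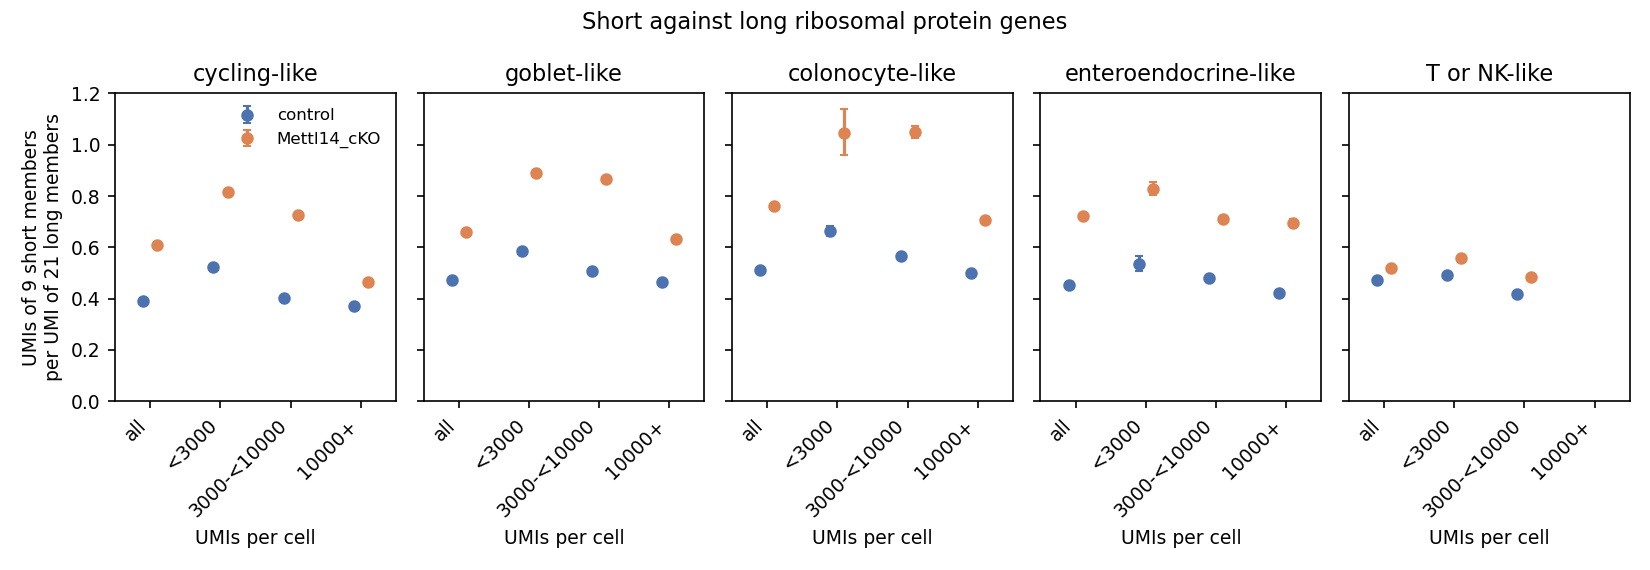
UMIs of the 9 short members per UMI of the 21 long members (vertical axis) by UMIs per cell (horizontal axis) in 5 cell classes, control in blue and Mettl14_cKO in orange, with 95% counting intervals. Orange lies above blue at each depth, by most in the epithelial classes (0.473 and 0.661 in all goblet-like cells) and by least in T or NK-like cells (0.472 and 0.518).

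Cell state moved with the measure as well. All 11 clusters with cells of both libraries had the higher value in Mettl14_cKO, but the size of the gap varied. Cluster 7 (cycling-like) stood at 0.372 and 0.409, cluster 8 (goblet-like) at 0.542 and 0.584, and cluster 16 (colonocyte-like) at 0.775 and 0.851. Goblet-like clusters that were nearly all Mettl14_cKO stood at 0.655 (cluster 4), 0.625 (cluster 13) and 0.879 (cluster 2, with 12.7% mitochondrial UMIs). The enteroendocrine-like cluster 14, with 126 control and 292 Mettl14_cKO cells, stood at 0.447 and 0.744, and T or NK-like cluster 12 at 0.472 and 0.479. Without the nuclear-RNA clusters the ratio of Mettl14_cKO to control was 1.35 in goblet-like and 1.10 in cycling-like cells. A strict cell filter brought colonocyte-like cells to 1.11. The part of depth, RNA quality and cluster makeup in these differences was not tested beyond these values.

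The balance between paralogs and their partners differed between the libraries. Rpl22l1, whose expression the Rpl22 protein is known to repress, held 51.5% of the pair's UMIs in control goblet-like cells and 44.2% in Mettl14_cKO. It stood at 40.4% and 30.5% in cycling-like, 44.4% and 39.1% in colonocyte-like and 39.6% and 36.2% in T or NK-like cells, and the intervals overlapped in the last of these alone. Enteroendocrine-like cells went the other way, from 45.3% to 55.4%, with 1202 and 1566 Rpl22l1 UMIs against 1452 and 1259 of Rpl22. In CPM, Rpl22l1 stood at 1520 and 1047 in goblet-like, 1371 and 884 in cycling-like and 717 and 471 in colonocyte-like cells. In enteroendocrine-like cells, where the Mettl14_cKO library had more UMIs in total, Rpl22l1 lay -0.01 from the member median of -0.34. It was thus lower in CPM there as well. Rpl22 was lower by more in that class, with a log2 ratio of -0.93, so the share of Rpl22l1 was higher.

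Rps27l, a known p53 target and paralog of Rps27, held 28.0% of its pair in control cycling-like cells and 15.8% in Mettl14_cKO. Its share was lower in Mettl14_cKO in each of the 5 classes, from 23.7% to 19.7% in goblet-like, 32.4% to 25.9% in colonocyte-like, 25.8% to 22.5% in enteroendocrine-like and 7.42% to 5.35% in T or NK-like cells. In goblet-like cells Rps27l itself was slightly higher in Mettl14_cKO, at 703 and 775 CPM, and Rps27 was higher by more, at 2260 and 3166. In cycling-like cells Rps27l was the lower in Mettl14_cKO, with 818 and 644 CPM, while Rps27 was higher. Trp53 itself was at 55.2 and 28.9 CPM in goblet-like and 95.6 and 47.8 in cycling-like cells. Of 10 eligible p53 and ribosome stress genes, Trp53 among them, 3 were at least 1.5-fold higher and 3 lower in goblet-like cells. The shares of all genes there were 12.2% and 15.8%. The counts were 2 and 1 of 9 in cycling-like (all genes 16.0% and 17.7%) and 1 and 1 of 7 in colonocyte-like cells (17.6% and 25.1%). Enteroendocrine-like cells had 4 and 2 of 10, and T or NK-like cells 2 and 0 of 8. Whether p53 activity differed between the libraries was not tested.

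Rpl36al, an autosomal gene on chromosome 12, and X-linked Rpl36a encode closely similar proteins. The Rpl36al share of the pair was higher in Mettl14_cKO in each epithelial class, from 16.1% to 25.5% in cycling-like, 20.9% to 27.1% in goblet-like, 19.2% to 21.9% in colonocyte-like and 20.1% to 31.8% in enteroendocrine-like cells. T or NK-like cells stood at 12.7% and 13.1%, within their intervals. The gene itself was at 295 and 509 CPM in goblet-like and 274 and 501 in cycling-like cells, 158 and 226 in colonocyte-like, 226 and 376 in enteroendocrine-like, and 224 and 217 in T or NK-like cells. The epithelial classes were thus higher in Mettl14_cKO throughout, and the T or NK-like class was nearly equal. Rpl36al shares 66.2% of its end words with another annotated gene, Gm49383, so its level is uncertain.

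**Figure D5:**
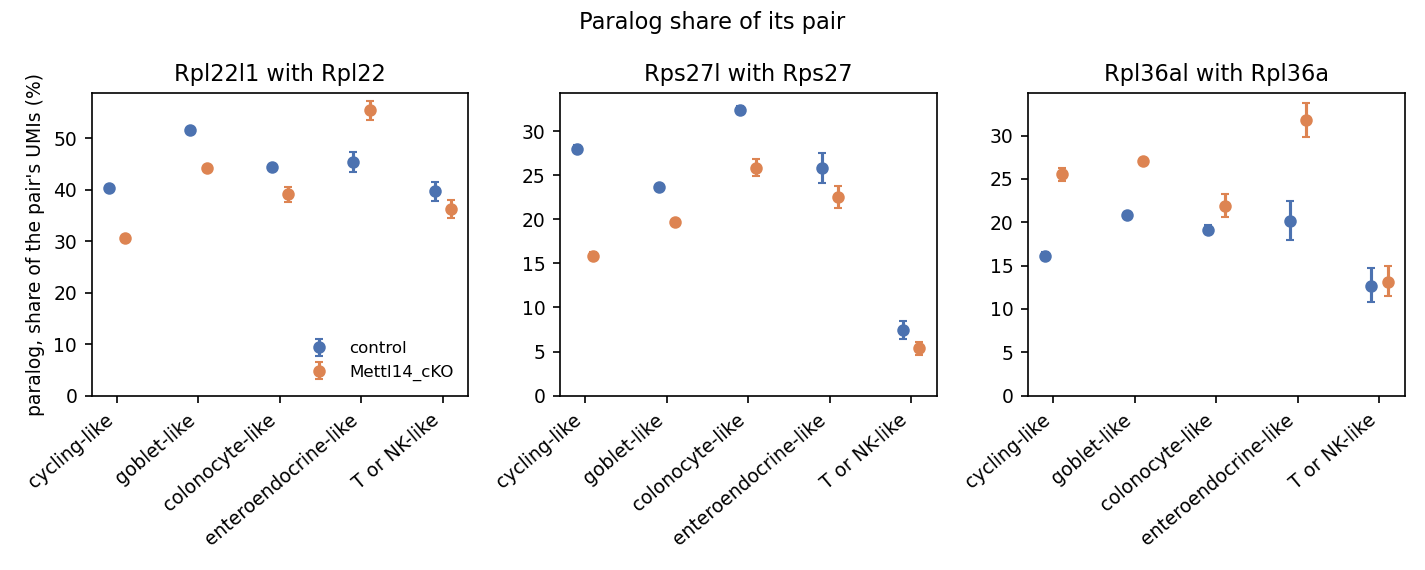
Share of each pair's UMIs held by the paralog (%, vertical axis) in 5 cell classes (horizontal axis), control in blue and Mettl14_cKO in orange, with exact 95% binomial intervals. The share of Rpl22l1 is lower in Mettl14_cKO apart from enteroendocrine-like cells (45.3% and 55.4%), that of Rps27l is lower throughout, and that of Rpl36al is higher in the epithelial classes.

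The other paralogs were minor. Rpl7l1, which acts in making the large subunit, held 3.26% and 3.85% of the Rpl7 pair in goblet-like and 3.53% and 2.70% in colonocyte-like cells. Rps27rt, a gene with nearly the same transcript as Rps27, held 0.988% and 1.198% of its pair in goblet-like cells, and its level was 22.6 and 38.4 CPM there, 23.1 and 48.3 in cycling-like, 13.2 and 19.7 in colonocyte-like, 18.1 and 29.2 in enteroendocrine-like (21 and 56 UMIs) and 32.1 and 38.6 in T or NK-like cells. As 90.8% of its end words also occur in other genes, reads of Rps27 assigned to it cannot be told apart from its own RNA, and Rps27rt is reported as uncertain.

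The 4 X-linked members (Rpl10, Rpl39, Rps4x and Rpl36a) are given because the libraries differ in sex, and they do not test its part. Their deviations from the member median ran from -0.44 (Rps4x) to 0.16 (Rpl39) in cycling-like cells, -0.10 to 0.35 in goblet-like, -0.05 to 0.65 in colonocyte-like, 0.11 to 0.37 in enteroendocrine-like and 0.02 to 0.14 in T or NK-like cells. They showed no common direction in the first 3 of these classes. Rps4x, a small subunit protein, stood at 4233 and 4280 CPM in goblet-like cells, and Rpl10, a late-joining protein of the large subunit, at 1864 and 2022 CPM.

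Members that differ between cell classes were sought by their share of all member UMIs, in both libraries. None of the 80 members stood at least 1.5-fold from the other epithelial classes in both libraries in any of the 4 epithelial classes. Of all genes, 10.6% were higher and 14% lower by this rule in cycling-like, 10.4% and 7.64% in goblet-like, 20.2% and 18.3% in colonocyte-like, and 16.1% and 15% in enteroendocrine-like cells. T or NK-like cells had 7 against the epithelial classes, 1 higher and 6 lower, against a background of 25.3% and 27.7%. Rpsa, a small subunit protein also known as a laminin receptor, made up 2.90% of member UMIs in control T or NK-like cells and 1.88% in epithelial classes, and 2.96% and 1.71% in Mettl14_cKO. Rps27l was lower by 4.03-fold in the control and 4.27-fold in Mettl14_cKO, with 184 and 195 UMIs of it in that class. Rpl36al was lower by 1.80-fold and 2.71-fold, Rps19bp1 by 3.41-fold and 2.82-fold (17 and 35 UMIs), Rpl26 by 1.61-fold and 1.79-fold, Rps25 by 1.58-fold and 1.80-fold, and Rpl7l1 by 1.62-fold and 1.52-fold. The T or NK-like cells also carried 15 goblet markers at a summed 4540 CPM in the control and 1463 in Mettl14_cKO, and the part of such epithelial RNA in these levels was not tested.

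Members kept class-typical proportions in both libraries even where none reached 1.5-fold. Across the 74 canonical members, the log2 difference of a class from the other epithelial classes in the control went with that in Mettl14_cKO, with r of 0.67 for cycling-like, 0.74 for goblet-like, 0.75 for colonocyte-like, 0.499 for enteroendocrine-like and 0.83 for T or NK-like against epithelial cells. These are values across genes, which share library and sequence composition. Rpl12 was the lowest member of colonocyte-like cells in both libraries, at -0.58 and -0.59, and Rpl10 the highest of goblet-like cells, at 0.34 and 0.57.

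Related genes give the setting. The 6 ribosomal proteins outside the symbol pattern had log2 medians of 0.22, 0.29, 0.34, -0.29 and -0.04 in the same order of classes as above.

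A list of other mRNAs known for a terminal oligopyrimidine tract, without Eef2, had lower medians than the ribosomal proteins in the 4 epithelial classes. These were -0.59 for cycling-like, -0.33 for goblet-like and -0.40 for colonocyte-like cells, with 12 eligible genes, and -0.66 and -0.08 in enteroendocrine-like and T or NK-like cells, with 13. At least 1.5-fold lower were 6, 1, 3, 8 and 0 of them, and 0 were higher in each class. Of all genes, 17.7%, 15.8%, 25.1% and 15.3% were lower in the 4 epithelial classes, so only the 6 and the 8 exceed this. Eef2 belongs to a separate list of elongation factors and is not in these counts. Of that list, 1 was higher and 2 lower of 8 in cycling-like cells. In goblet-like cells 1 was higher and 0 lower of 7, in colonocyte-like 0 and 0, and in enteroendocrine-like 0 and 1. Npm1, a chaperone of ribosome assembly, stood at 1253 and 815 CPM in cycling-like, 735 and 518 in goblet-like, 233 and 133 in colonocyte-like and 811 and 401 in enteroendocrine-like cells. Impdh2, of guanine nucleotide synthesis, averaged -0.68, and Tpt1 -0.17. The elongation factor Eef2 was higher in Mettl14_cKO in each class, with 507 and 904 CPM in cycling-like and 535 and 836 in goblet-like cells, while Eef1a1 stood at 4326 and 3625 and at 4257 and 4979.

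Genes that build ribosomes had log2 medians below 0 in each class. Of 62 ribosome biogenesis genes, 61 were eligible in cycling-like cells, with 2 higher and 9 lower, and 57 in goblet-like cells, with 8 higher and 0 lower. The share of all genes past the same fold, higher and lower, was 16.0% and 17.7% in cycling-like and 12.2% and 15.8% in goblet-like cells, so the 9 lower and the 8 higher lie near it. Colonocyte-like cells had 2 higher and 15 lower of 40 (all genes 17.6% and 25.1%), and enteroendocrine-like 4 and 13 of 57 (24.9% and 15.3%). For T or NK-like cells the counts were 2 and 11 of 59, against the all-gene shares given with the members above. Medians of the biogenesis genes were -0.21, -0.01, -0.38, -0.19 and -0.26. Of 40 eligible in each epithelial class, 0 were past 1.5-fold the same way in each. The share of all genes that pass in each epithelial class was not counted, here and for the lists below. Initiation factors gave 1 higher and 6 lower of 24 in cycling-like cells (all genes 16.0% and 17.7%). They gave 1 and 2 in goblet-like cells (12.2% and 15.8%), with 0 past 1.5-fold in T or NK-like cells. Of the ribosome quality control genes, 0 of 5 eligible in each epithelial class were past it the same way in each. The regulators of the tract, such as Mtor, Larp1 and the Eif4ebp genes, had 0 of 12 past 1.5-fold the same way in each epithelial class.

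Among RNA polymerase subunits and Myc partners, Polr2l was the 1 of 12 genes past 1.5-fold upward in each epithelial class, at 36.2 and 66.4 CPM in goblet-like and 43.6 and 84.6 in cycling-like cells. In the list of p53 and ribosome stress genes, Trp53 was the 1 of 6 past 1.5-fold downward in each epithelial class, and 0 were upward. Mitochondrial ribosomal proteins, encoded in the nucleus for a separate ribosome, differed by class. In cycling-like cells 3 were higher and 24 lower of 77 (background 16.0% and 17.7%), in colonocyte-like cells 4 and 36 of 76 (17.6% and 25.1%) and in enteroendocrine-like cells 9 and 19 of 77 (24.9% and 15.3%). Goblet-like cells had 15 higher and 4 lower of 77 (12.2% and 15.8%). Of 76 eligible in each epithelial class, 3 were higher and 4 lower in every one of them. Mrpl43 stood at 164 and 643 CPM in goblet-like cells and Mrps34 at 149 and 404, while Mrpl42 stood at 222 and 139 and Mrps22 at 25.7 and 15.02. In T or NK-like cells Mrpl43 was read at 144 and 161 CPM and Mrps34 at 90.3 and 79.4.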

How the data were processed

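The authors deposited UMI counts for each gene and barcode, unnormalized, from Cell Ranger (3.0.0 per the submitters' processing notes, 3.1.0 per the file headers). Seurat 3 is also listed in the notes. No source names the genome build, the annotation or which transcript end the kit reads. The members and gene lists were chosen with earlier results of these data known. Of the gene IDs, 99.6% matched GENCODE M21 (GRCm38), used for coordinates and lengths. A cell was kept with 500 or more genes and less than 25% mitochondrial UMIs (9154 control and 7125 Mettl14_cKO), and 77 and 53 with a Scrublet score of at least 0.25 were then removed. After normalization and log transformation, 2000 variable genes (without ribosomal protein, mitochondrial, Y-linked and gasdermin genes, Mettl14 and Xist), 30 principal components and 15 neighbours gave 23 Leiden clusters at resolution 1, with no integration (Python 3.11.15, scanpy 1.11.5, leidenalg 0.10.2). A cluster took a class name from at least 3 markers among its 50 leading genes, and no other class could hold more of the first 10. Class names are rebuilt here. Unnamed epithelial clusters held 667 and 1352 cells.

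Counts were summed per class and library and scaled to CPM. Shares have exact binomial and ratios exact conditional intervals. Log2 ratios used a pseudocount of 1 CPM, genes needed 10 CPM, and classes 100 cells in both libraries. Each group is 1 library, so no test was run, and the scripts were tested on simulated data. Named were members off the common pattern or varying by class, paralogs with their partners, X-linked members, the 4 with the most UMIs, those nearest the threshold, and from each related list up to 2 genes each way past 1.5-fold in every epithelial class. Other genes named, and the length classes, were chosen after their values were seen. Free RNA was not removed.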

Additional observations from a re-analysis of the deposited data

Results flagged for a closer look

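The ribosomal protein share went in opposite directions in classes of the same libraries. The ratio of Mettl14_cKO to control was 0.834 in enteroendocrine-like and 0.917 in T or NK-like cells but 1.12 in goblet-like cells. Within cluster 12, the T or NK-like cluster that both libraries filled, the ratio was 1.05 (29.5% and 30.8%), and cluster 17, at 24.6%, held 271 Mettl14_cKO and 8 control cells. With 1 library per group, the difference between classes was not tested.

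The Rpl22l1 share of its pair with Rpl22 was 10.1 points higher in Mettl14_cKO in enteroendocrine-like cells and lower in the other 4 classes. In the alternatives it stayed between 8.38 and 12.7 points higher in enteroendocrine-like cells, and this difference between classes was not tested either.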

How the results depend on the processing

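No paired analysis was possible because each genotype has 1 library, which also means that no replicate could be left out. The alternatives without the nuclear-RNA clusters, and all those of short against long members, were chosen after seeing the data. Unless stated, the cause of a change was not tested. The share ratio of Mettl14_cKO to control in cycling-like cells (1.138) was 0.9699 with a lenient filter (300 genes, 50% mitochondrial), 1.11 with a strict one (1000 genes, 15%), 1.039 with doublets kept, 0.9512 and 1.079 at resolutions 0.5 and 2, 1.202 without mitochondrial UMIs, 1.177 without the 50 top other genes, 1.115 thinned to 1700 UMIs, 1.038 without nuclear-RNA clusters, 1.082 as cell medians and 1.141 for canonical members. Goblet-like cells (1.119) had 1.162 strict, 1.157 with doublets, 1.175 at resolution 2, 1.132 without mitochondrial UMIs, 1.13 without top genes, 1.197 thinned, 1.102 without nuclear-RNA clusters, 1.18 as medians and 1.121 canonical. Colonocyte-like cells (1.061) had 1.409 lenient, 1.617 strict, 1.095 with doublets, 1.004 and 0.9556 at resolutions 0.5 and 2, 1.087 without mitochondrial UMIs, 1.072 without top genes, 0.9862 thinned and 0.9419 as medians. Enteroendocrine-like cells (0.8339) had 0.8728 strict, 0.851 with doublets, 0.8271 and 0.7948 at the resolutions, 0.8248 without top genes, 0.9217 thinned and 0.9566 as medians. T or NK-like cells (0.917) had 0.9242 without mitochondrial UMIs, 0.8977 thinned and 0.8562 as medians, and the strict filter left too few of them to compare.

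Pairs of member and class past 1.5-fold (37) were 56 lenient, 76 strict (in 4 classes) and 23 without nuclear-RNA clusters. Members off the pattern (5) were 2 lenient, strict, with doublets or at resolution 0.5, and 1 without nuclear-RNA clusters. Members varying by class (7) were 0 with the strict filter, which leaves out T or NK-like cells, and 12 thinned. In goblet-like cells the Rpl22l1 share differed by -7.35 points, and by -9.146 lenient, -10.32 at resolution 2, -11.3 thinned and -6.287 without nuclear-RNA clusters. Rps27l (-4.06) had -5.514 lenient, -3.202 strict, -3.56 with doublets, -3.243 at resolution 2, -6.434 thinned and -3.067 without nuclear-RNA clusters. Rpl36al (6.20) had 7.061, 4.826, 5.486, 7.138, 9.009 and 5.157 in that order. Direction reversed for Rpl7l1 in colonocyte-like cells (0.1054 strict) and Rps27rt in cycling-like cells (-0.1701 without nuclear-RNA clusters). The short-to-long ratio in goblet-like cells (1.40) was 1.441 lenient, 1.362 strict, 1.337 at resolution 2, 1.506 thinned and 1.349 without nuclear-RNA clusters.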

Other observations

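Cells outside the 5 compared classes differed in paralog balance as well. B or plasma-like cells of Mettl14_cKO held 31.9% of the Rpl22 pair as Rpl22l1, 9.14% of the Rps27 pair as Rps27l and 18.1% of the Rpl36a pair as Rpl36al, and myeloid-like cells held 35.6%, 12.6% and 23.2%. Unnamed epithelial clusters stood at 40.5% in the control and 35.8% in Mettl14_cKO for Rpl22l1, 26.0% and 24.9% for Rps27l, and 13.7% and 22.1% for Rpl36al. In enteroendocrine-like cells Vim, an intermediate filament gene on the list of other tract-bearing mRNAs, stood at 854 CPM in the control and 65.1 CPM in Mettl14_cKO.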
